A study of Mus musculus with 2 samples.

Results

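Peaks of the chromatin remodeler SRCAP were examined at the promoters of 79 DNA replication and repair genes, out of 21951 protein-coding genes of the GENCODE vM21 annotation on the mouse assembly GRCm38. The genes were chosen by symbol, and the rule used no measured value, though earlier results of these data were known. The replication genes were the 35 symbols that begin with Mcm, Orc, Rfc, Gins, Pola, Pold or Pole and a number, together with Pole. The repair genes were the 44 symbols that begin with Rad5, Xrcc, Ercc, Msh, Mlh or Brca and a number, or that consist of Fanc and 1 letter. Longer symbols such as Mcm3ap, Rad51ap2 and Ercc6l were kept, because a number follows the prefix.

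SRCAP is the motor subunit of a complex that puts the histone variant H2A.Z in the place of H2A. Its binding sites were mapped with CUT&RUN, where an antibody brings a nuclease to the protein and nearby DNA is cut free, in 1 library with an antibody against GFP and in 1 library with an antibody against SRCAP. Both libraries came from SYAT cells, mouse embryonic stem cells (mESCs) of the CGR8 line derived from a picked knock-in clone. In these cells both Srcap alleles end in YPet, a yellow fluorescent tag, and AID, a degron that responds to auxin, and the receptor OsTir1 is stably expressed. The GFP antibody recognises the YPet tag, so both antibodies target the same fusion protein. SYAT cells were kept with auxinole, which prevents basal loss of SRCAP, in medium with serum, LIF and the inhibitors CHIR99021 and PD184352. Ahead of experiments they were moved to serum and LIF medium without these inhibitors. The labels do not say how the cells of each library were treated.

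The deposited lists hold 28718 peaks for the GFP antibody and 28167 for the SRCAP antibody, each with a start, an end and a whole-number score that is at least 13 and has a median of 47 in both. Scores were compared within a list only. Without read counts in the lists, sequencing depth is unknown, and the labelled cell type could not be checked against expressed markers. A gene had a promoter peak when the midpoint of a peak lay between 1000 bp upstream and 500 bp downstream of any of its transcription start sites (TSSs). With 1 library per antibody there was no replicate error and no test between groups. Intervals are 95% Wilson intervals over genes and cover counting error only.

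Replication begins where the origin recognition complex (ORC) loads the MCM2-7 helicase onto DNA, and the GINS complex and other factors turn that helicase on. Polymerase alpha then starts each strand, the RFC clamp loader sets the sliding clamp, and polymerases delta and epsilon extend the strands. Many of these genes are known targets of E2F factors, which switch on genes of the S phase of the cell cycle. Repair genes act on mismatches, bulky lesions, crosslinks and broken strands, and several of them also serve cells that divide fast, as mESCs do.

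The promoter sequences that carried motif matches inside the peaks of both antibodies are shown for the named genes that had them upstream of the TSS and outside annotated exons, since these are the stretches of DNA on which the peaks lay. They were read from the RefSeq copy of GRCm38 on the strand of the gene, upstream of the TSS, and capitals mark the matches. All 5 genes lie on the minus strand. Gins2 is shown from chr8:120589350-120589406, Mcm4 from chr16:15637437-15637649, Mcm3 from chr1:20820313-20820456, Gins4 from chr8:23237676-23237815 and Xrcc3 from chr12:111813877-111814065. The capitals are 1 word of the factor NFY in Gins2, 2 NFY words, of which 1 is inverted, in Mcm3 and in Xrcc3, 2 E2F words followed by an inverted NFY word in Mcm4, and an ETS word followed by an inverted NFY word in Gins4. Orc6 is not shown, because its NFY and SP words, which also lay inside both peaks, fall in an annotated exon.
Gins2: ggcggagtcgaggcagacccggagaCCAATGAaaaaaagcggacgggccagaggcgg
Mcm4: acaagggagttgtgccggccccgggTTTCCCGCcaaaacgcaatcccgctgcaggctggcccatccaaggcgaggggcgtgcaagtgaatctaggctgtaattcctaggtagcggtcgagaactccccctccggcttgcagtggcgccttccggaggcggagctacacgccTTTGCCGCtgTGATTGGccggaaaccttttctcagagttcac
Mcm3: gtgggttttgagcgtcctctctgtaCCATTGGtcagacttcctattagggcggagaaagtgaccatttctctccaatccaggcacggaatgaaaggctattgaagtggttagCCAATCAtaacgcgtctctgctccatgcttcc
Gins4: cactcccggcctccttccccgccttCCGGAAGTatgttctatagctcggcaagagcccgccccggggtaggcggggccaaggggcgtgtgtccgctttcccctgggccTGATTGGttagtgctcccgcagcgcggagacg
Xrcc3: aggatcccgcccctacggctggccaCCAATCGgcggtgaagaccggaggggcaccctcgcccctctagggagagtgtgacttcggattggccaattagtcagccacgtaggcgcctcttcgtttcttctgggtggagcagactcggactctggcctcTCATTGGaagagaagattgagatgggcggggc

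A second set of sequences is shown because 4 of the 5 promoters that hold its pattern belong to these genes. In 4 of the 79 promoters, 2 E2F words on opposite strands overlapped by 4 bases and formed a 12-base site, which was found in 5 of all 21951 protein-coding promoters (0.0228%) in the window from 250 bp upstream to 50 bp downstream of the reference TSS. This arrangement was noticed after the motif matches had been seen, and no test was made of it. The 4 genes are Mcm5 and Mcm6, subunits of the helicase, Gins1, a subunit of GINS, and Msh3, which recognises mismatched loops of DNA. The fifth gene was Mycn, a transcription factor gene outside the list, which had no promoter peak in either list. The sites of the replication genes are at chr1:128359796-128359823 on the minus strand for Mcm6, at chr8:75109348-75109375 on the plus strand for Mcm5 and chr2:150909577-150909604 on the plus strand for Gins1. Capitals mark the 12-base site, with 8 bases on either side.
Mcm6: cgtatgctTTTGGCGCGAAAagtgcgtg
Mcm5: ccaagaacTTTCGCGCCAAAacgtccag
Gins1: tgagcctaTTTGGCGCCAAAgcgaggag

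The site of Mcm5 is the reverse complement of the site of Mcm6 and Msh3, and these 3 genes were 3 of the 4 protein-coding genes that hold it. It lay inside the peaks of both antibodies in Mcm5, where it began 213 bp upstream of the TSS, and in Mcm6, where it began 151 bp upstream. In Msh3 it began 210 bp upstream and lay inside the SRCAP antibody peak only. The Gins1 site spans the TSS, and 10 of its 12 bases lay in the GFP antibody peak near that TSS and 0 in an SRCAP antibody peak.

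Most of the 79 genes had a promoter peak. The GFP antibody gave one at 57 genes (72.2%, interval 61.4 to 80.8%), against 35.0% of all protein-coding genes, and the SRCAP antibody at 62 genes (78.5%, interval 68.2 to 86.1%), against 35.6%. Both antibodies had one at 51 genes (64.6%), against 27.0% of protein-coding genes, and at 49 of them (62.0%) the peaks of the antibodies overlapped by at least 1 bp, against 25.6%. In each of these counts the lower bound for the 79 genes lay above the share of all protein-coding genes. Neither antibody had a promoter peak at 11 genes (13.9%, interval 7.96 to 23.2%), while 56.4% of all protein-coding genes were without one.

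**Figure D1:**
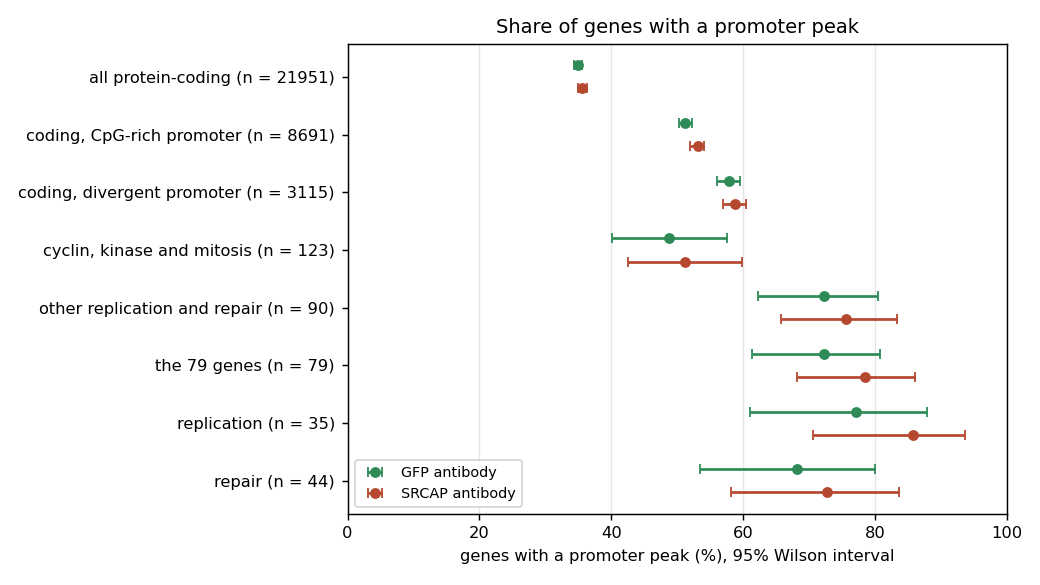
Share of genes with a promoter peak (x axis, percent) for sets of genes (y axis, with the number of genes); circles are the shares in 1 library per antibody and bars the 95% Wilson intervals. The 79 genes sit at 72.2% and 78.5%, and all protein-coding genes at 35.0% and 35.6%.

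Replication genes had a promoter peak somewhat more often than repair genes, but the difference was within counting error. Of the 35 replication genes, 27 had a GFP antibody peak (77.1%, interval 61.0 to 87.9%) and 30 an SRCAP antibody peak (85.7%, interval 70.6 to 93.7%). Of the 44 repair genes, 30 had a GFP antibody peak (68.2%, interval 53.4 to 80.0%) and 32 an SRCAP antibody peak (72.7%, interval 58.2 to 83.7%). The replication share was higher by 8.96 percentage points with the GFP antibody (interval -11.1 to 27.2) and by 13.0 points with the SRCAP antibody (interval -5.64 to 29.6). Both intervals include no difference. The genes without any promoter peak were 3 of 35 in replication and 8 of 44 in repair.

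At the start of replication, all subunits of the 3 complexes that license and activate origins had a promoter peak with at least 1 antibody. Such a peak was present at 86.1% of the 79 genes and at 43.6% of all protein-coding genes. The ORC genes Orc1 to Orc6 had a GFP antibody peak in 6 of 6 cases, with scores from 45 to 176, and an SRCAP antibody peak in 5 of 6, with scores from 23 to 200. Orc6, which encodes the smallest ORC subunit, led this group with a score of 176 at chr8:85299563-85299882 in the GFP list and 200 at chr8:85299557-85299965 in the SRCAP list. Orc1, the subunit whose level follows the cell cycle, scored 79 and 27, and Orc2 scored 53 and 66. Orc5 scored 101 with the GFP antibody and 40 in the other list. Orc4, whose midpoints lay 349 and 318 bp downstream of a TSS, scored 56 and 23. Orc3 was the exception, with a score of 45 in the GFP list only, at a midpoint 122 bp from the TSS of its divergent neighbour Rars2.

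The helicase genes Mcm2 to Mcm7 had an SRCAP antibody peak in 6 of 6 cases and a GFP antibody peak in 5 of 6. Mcm4 scored 139 with the GFP antibody at chr16:15637411-15637805 and 77 with the SRCAP antibody at chr16:15637395-15637923. These peaks lay between Mcm4 and Prkdc, which encodes the catalytic subunit of the DNA-dependent protein kinase of end joining and starts 466 bp away on the other strand, so the same peaks were counted for both genes. Mcm3 scored 109 at chr1:20820306-20820541 with the GFP antibody and 89 at chr1:20820305-20820521 with the SRCAP antibody. Mcm5 scored 72 and 90, and Mcm6 scored 52 and 120, with the GFP and SRCAP antibodies. The weakest of the group was Mcm2, whose only promoter peak, with a score of 23 in the SRCAP list, lay 631 bp upstream of an internal start site and 4422 bp downstream of the reference TSS. The highest peaks of Mcm7 in both lists also lay at an internal start site, and at its reference TSS it had a GFP antibody peak with a score of 33.

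Gins2, a GINS subunit, had the highest score of the 79 genes in both lists. It scored 302 with the GFP antibody at chr8:120588845-120589572 and 515 with the SRCAP antibody at chr8:120589036-120589550, at the 98.7th and 99.9th percentile of the highest promoter peak scores of all protein-coding genes with a peak in the same list. Its midpoints lay 95 and 11 bp downstream of the TSS. Gins4 scored 108 at chr8:23237425-23238161 and 143 at chr8:23237652-23238114. Gins1 scored 108 and 127 at a distal start site, 487 and 497 bp upstream of that TSS, where Abhd12 starts on the other strand, and 71 and 76 near its reference TSS. The nearest GFP antibody peak of Gins3 lay 33600 bp upstream, while it scored 139 with the SRCAP antibody at chr8:95633323-95633656. The highest SRCAP antibody scores of all 4 GINS genes were at or above 127, for Gins1 only through the peak near Abhd12. Mcm10, which works beside these complexes to activate the helicase, scored 103 and 74.

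Polymerase alpha, delta and epsilon each had 1 gene without any promoter peak. Pola1, the catalytic subunit of polymerase alpha on the X chromosome, had its nearest peak midpoint 43316 bp upstream with the GFP antibody. Pold3, an accessory subunit of polymerase delta, had its nearest midpoints 57262 and 57113 bp upstream with the GFP and SRCAP antibodies. Pole, the catalytic subunit of polymerase epsilon, had a GFP antibody peak with a score of 81 at chr5:110284481-110284771, 1680 bp upstream and so outside the promoter window, and its nearest SRCAP antibody peak was 9704 bp downstream. Among their partners, Pold1 scored 82 and 136, Pole3 scored 99 and 92, and Pola2 scored 31 and 40 with the GFP and SRCAP antibodies. Pole4, which pairs with Pole3 as a histone-like unit, scored 81 and 67, and Pold4 scored 61 and 83. Pole2 scored 49 and 40. The 2 peaks of Pold2, at 30 and 34, did not overlap, since they lay 279 and 31 bp upstream of a TSS.

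The RFC genes had the lowest scores of the larger replication groups. With the GFP antibody 3 of 5 had a peak, with scores from 21 to 43, and with the SRCAP antibody 4 of 5, with scores from 23 to 60. Rfc3 had the highest of these, 60 at chr5:151651196-151651373, in the SRCAP list only, while a GFP antibody peak with a score of 20 lay 560 bp downstream and so just outside the window. Rfc4 scored 43 and 50 and Rfc5 scored 22 and 23, while Rfc1, the large subunit, scored 21 in the GFP list only and Rfc2 scored 23 in the SRCAP list only. Mcm9, a paralogue of the helicase subunits that acts with Mcm8 in recombination, scored 61 in the SRCAP list at chr10:53629918-53630284 and had its nearest GFP antibody peak 1345 bp upstream, with a score of 80. Mcm8 itself scored 69 and 51, and Mcm3ap, which carries the prefix but encodes a factor of messenger RNA export, scored 45 and 23.

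**Figure D2:**
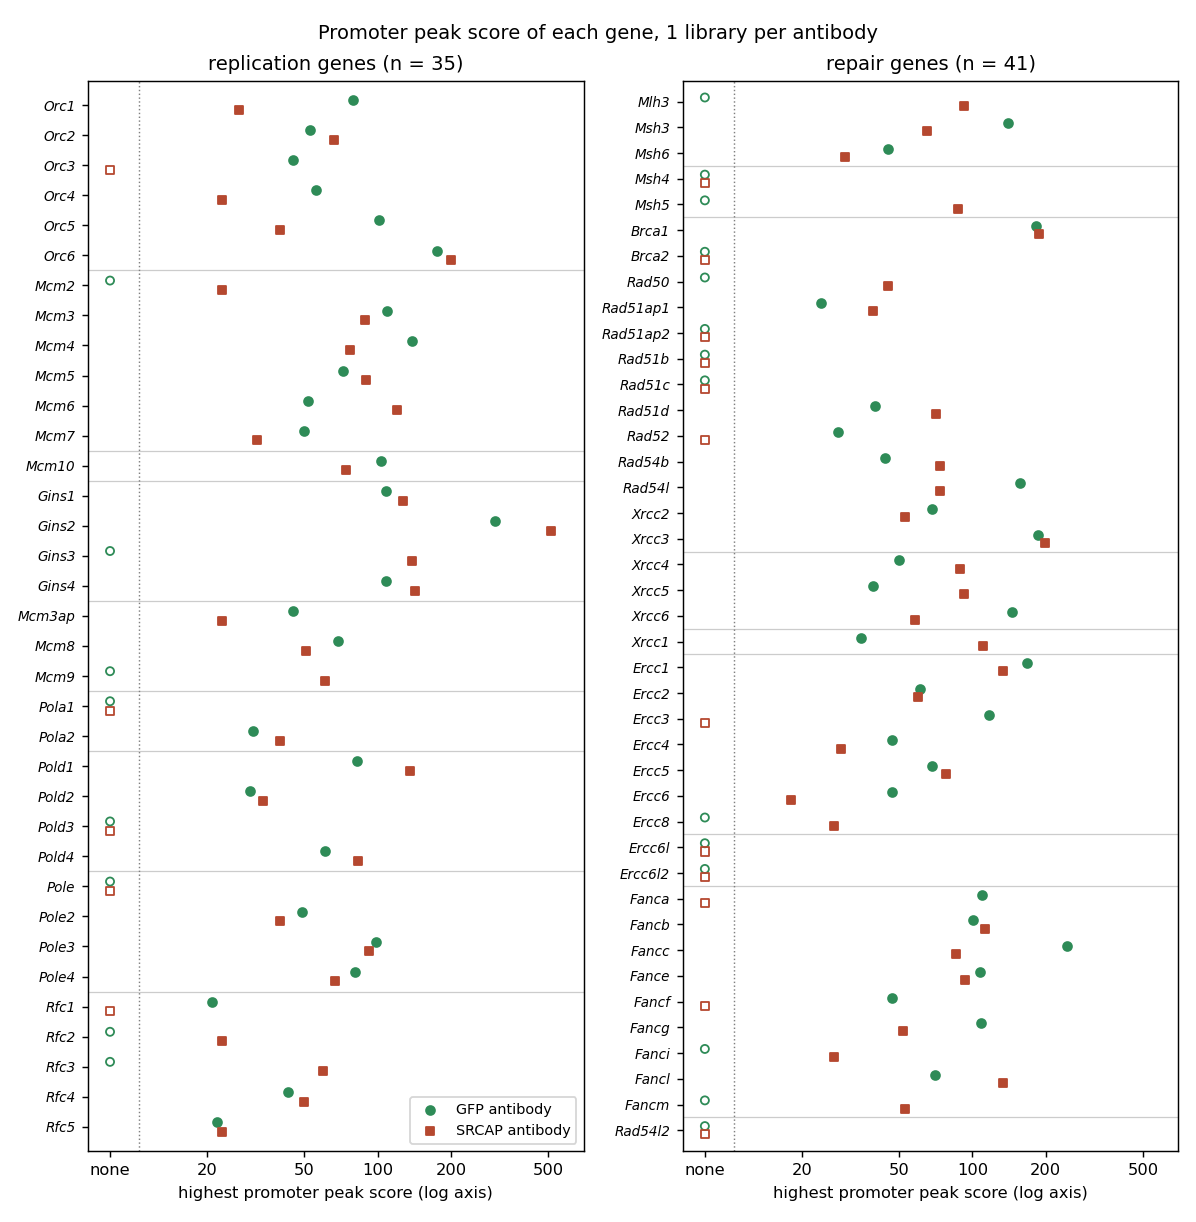
Highest promoter peak score (x axis, log scale) of the replication genes (left) and of 41 of the 44 repair genes (right), with grey lines between functional groups. Circles are the GFP antibody and squares the SRCAP antibody, 1 library each, and open symbols at the left mark genes without a promoter peak; Gins2 stands highest, at 302 and 515, and 11 genes have no filled symbol.

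In mismatch repair, the 5 genes that act in dividing cells had a promoter peak in 4 cases with the GFP antibody and in 5 with the SRCAP antibody. Msh3 scored 140 (GFP antibody) and 65 (SRCAP antibody), and Msh6, which recognises single mismatches, scored 45 and 30. Mlh3 was in the SRCAP list only, with a score of 92 at chr12:85270363-85270661, and its nearest GFP antibody peak was 1456 bp upstream with a score of 43. The MutS homologues Msh4 and Msh5, known for their work in meiosis, had no GFP antibody promoter peak. Msh5 scored 87 with the SRCAP antibody at chr17:35046739-35047010, and Msh4 had its nearest midpoints 7118 and 7088 bp upstream.

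Homologous recombination, which repairs broken DNA from the sister copy, was the largest group. Of its 14 genes, 9 had a GFP antibody peak, 9 an SRCAP antibody peak and 8 both. Of the rest, 1 gene was in the GFP list only, 1 was in the SRCAP list only and 4 were in neither. Those 4 were 28.6% of the group (interval 11.7 to 54.6%), against 56.4% of all protein-coding genes. Xrcc3, a recombination mediator, scored 185 at chr12:111813672-111814121 and 199 at chr12:111813873-111814121. Brca1, a tumour suppressor that directs break ends to recombination, scored 182 at chr11:101552077-101552885 and 188 at chr11:101552591-101552926. These midpoints lay 526 and 804 bp upstream of Brca1, and 173 and 99 bp from the TSS of its divergent neighbour Nbr1, so the peaks lay closer to Nbr1. Rad54l, a motor protein of recombination, scored 157 with the GFP antibody, 26 bp from the TSS of its neighbour Pomgnt1, and 74 with the SRCAP antibody. Its relative Rad54b scored 44 and 74 in peaks that did not overlap. Xrcc2, which acts with Xrcc3 in this pathway, scored 68 and 53 and Rad51d scored 40 and 71. Rad51ap1, a recombination cofactor, scored 24 and 39 near the TSS of its neighbour D6Wsu163e. Rad52 scored 28 in the GFP list only, and Rad50, which tethers broken ends, scored 45 in the SRCAP list only.

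The 4 recombination genes without a promoter peak were Brca2, Rad51b, Rad51c and Rad51ap2. Brca2, a tumour suppressor of the same pathway as Brca1, had its nearest midpoints 26686 bp upstream with the GFP antibody and 24732 bp downstream with the SRCAP antibody. Rad51b was a case of the window edge, with midpoints 1064 bp upstream (score 93, GFP antibody) and 1017 bp upstream (score 81, SRCAP antibody), beside the TSS of Zfyve26. Rad51c had its nearest midpoints 5660 and 10393 bp downstream, and Rad51ap2, a protein known from meiosis, had them 19305 and 19323 bp upstream.

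The end joining genes Xrcc4, Xrcc5 and Xrcc6, of which Xrcc5 and Xrcc6 encode the Ku proteins that cap broken ends, had promoter peaks with both antibodies in 3 of 3 cases. Xrcc6 scored 146 and 58, Xrcc5 scored 39 and 92 and Xrcc4 scored 50 and 89. Xrcc1, the scaffold of single-strand break repair, scored 35 and 111. Xrcc6 and Xrcc1 had promoter peaks only at alternative starts in both lists. Their highest peaks lay 938 and 804 bp (Xrcc6) and 646 and 732 bp (Xrcc1) downstream of the reference TSS. In these 4 genes the antibodies did not rank the genes alike.

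In nucleotide excision repair, which removes bulky lesions, 6 of 7 genes had a peak with each antibody and 5 with both. Ercc1, a subunit of a nuclease that cuts beside the lesion, scored 167 at chr7:19345040-19345421 and 133 at chr7:19344982-19345402. Ercc3, a helicase of the factor TFIIH, scored 117 in the GFP list at chr18:32240010-32240493, and the nearest SRCAP antibody peak lay 77303 bp upstream. Ercc5, the nuclease that cuts on the other side of the lesion, scored 68 and 78, and Ercc2, the second helicase of TFIIH, scored 61 and 60. Ercc4, the catalytic partner of Ercc1, was lower, at 47 and 29. Ercc6 and Ercc8, which act where the lesion stalls transcription, were lowest with the SRCAP antibody, at 18 and 27, and Ercc8 had no GFP antibody peak. Ercc6l and Ercc6l2, which resemble Ercc6 in sequence, had no promoter peak, and the nearest midpoints lay between 22155 and 85960 bp away.

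The Fanconi anaemia genes, whose products repair crosslinks between strands, all had a promoter peak with at least 1 antibody, 7 of 9 with each and 5 with both. At least 1 antibody had a promoter peak at 86.1% of the 79 genes and at 43.6% of all protein-coding genes. Fancc scored 244 with the GFP antibody at chr13:63430826-63431273, the second highest GFP score of the 79 genes, and 86 with the SRCAP antibody at chr13:63430813-63431357. Both peaks lay within an alternative start region, 696 and 660 bp downstream of the reference TSS. Fancl, the ubiquitin ligase of the pathway, scored 70 at chr11:26386941-26387517 and 134 at chr11:26386853-26387534, also at an alternative start. Fancb on the X chromosome, Fance and Fancg, all subunits of the Fanconi core complex, scored 101, 107 and 108 with the GFP antibody and 113, 93 and 52 with the SRCAP antibody. Fanca was in the GFP list only, with a score of 110 at chr8:123318554-123318809, and its nearest SRCAP antibody peak, with a score of 42, lay 751 bp downstream of an alternative start. Fancf scored 47 in the GFP list only at chr7:51862358-51862574, nearer to the TSS of its divergent neighbour Gas2, and Fancm, a DNA translocase, scored 53 in the SRCAP list only at chr12:65075327-65075578. Fanci, which is ubiquitinated in the pathway, scored 27 in the SRCAP list only. Rad54l2, which was kept for its symbol alone, had no promoter peak.

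Genes found with 1 antibody only had a lower median score than genes found with both. The 6 genes of the GFP list only were Orc3, Rfc1, Rad52, Ercc3, Fanca and Fancf, with a median score of 46.0 against 70.0 for the 51 genes found in both lists. The 11 genes of the SRCAP list only were Mcm2, Gins3, Mcm9, Rfc2, Rfc3, Mlh3, Msh5, Rad50, Ercc8, Fanci and Fancm, with a median of 53.0 against 74.0 for the same 51 genes. Genes of the GFP list only were 7.59% of the 79 (interval 3.53 to 15.6%), against 7.98% of all protein-coding genes. Genes of the SRCAP list only were 13.9% (interval 7.96 to 23.2%), against 8.63%. The difference in median score was not examined over all protein-coding genes. The median score of all peaks in the list was reached by 3 of the 6 and 6 of the 11, against 40 and 37 of the 51. Scores at or above 100 were those of Gins3 in the SRCAP list and Ercc3 and Fanca in the GFP list.

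Over the genes with a peak, the median of the highest promoter peak score was 70.0 in 57 genes with the GFP antibody, against 57.0 over all protein-coding genes with a peak. With the SRCAP antibody it was 69.0 in 62 genes, against 60.0. Among all protein-coding genes with a peak, 63.3% (GFP antibody) and 65.9% (SRCAP antibody) reached the median score of all peaks in the list. Here 43 of 57 genes (75.4%) and 43 of 62 genes (69.4%) did. These values describe the genes that had a peak, not all 79. Replication and repair medians were 69.0 and 70.0 with the GFP antibody and 63.5 and 74.0 with the SRCAP antibody. Across the 51 genes in both lists, the scores had a Spearman rho of 0.591, given as a description of points that share their cells and genome.

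**Figure D3:**
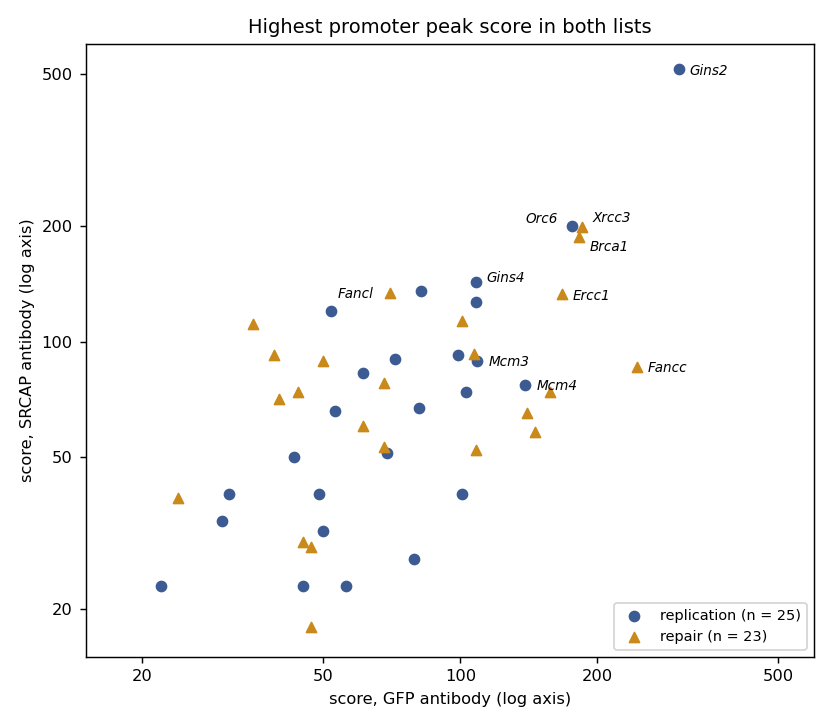
Highest promoter peak score with the GFP antibody (x axis) against the SRCAP antibody (y axis), both on log scales, for 48 of the 51 genes with a promoter peak in both lists; each symbol is a gene, circles replication and triangles repair. Gins2 stands apart at 302 and 515, and Fancc lies far to the right of genes of like SRCAP score.

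The peaks lay close to the TSS, mostly on its upstream side, which the window of 1000 bp upstream and 500 bp downstream favours. Downstream lay 32.4% of the GFP antibody peaks and 29.0% of the SRCAP antibody peaks. The shares over all protein-coding genes were near these, at 28.2% and 28.1%. The 68 GFP antibody promoter peaks had a median midpoint of -91 bp from the TSS (quartiles -214 and 27), and the 69 SRCAP antibody peaks a median of -46 bp (quartiles -139 and 11). The medians for all protein-coding genes were -128 and -92 bp. Within 250 bp of a TSS lay 75.0% of the GFP antibody peaks and 82.6% of the SRCAP antibody peaks, against 67.1% and 74.5% over all protein-coding genes. Where peaks of both antibodies overlapped, in 53 pairs at 49 genes, the SRCAP antibody midpoint differed from the GFP antibody midpoint by a median of -9 bp (quartiles -41 and 46), and 43 pairs lay within 100 bp of each other. The own TSS of the gene was the nearest of all annotated start sites for 53 of the 68 GFP antibody peaks and 58 of the 69 SRCAP antibody peaks, and the rest lay nearer to another gene.

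**Figure D4:**
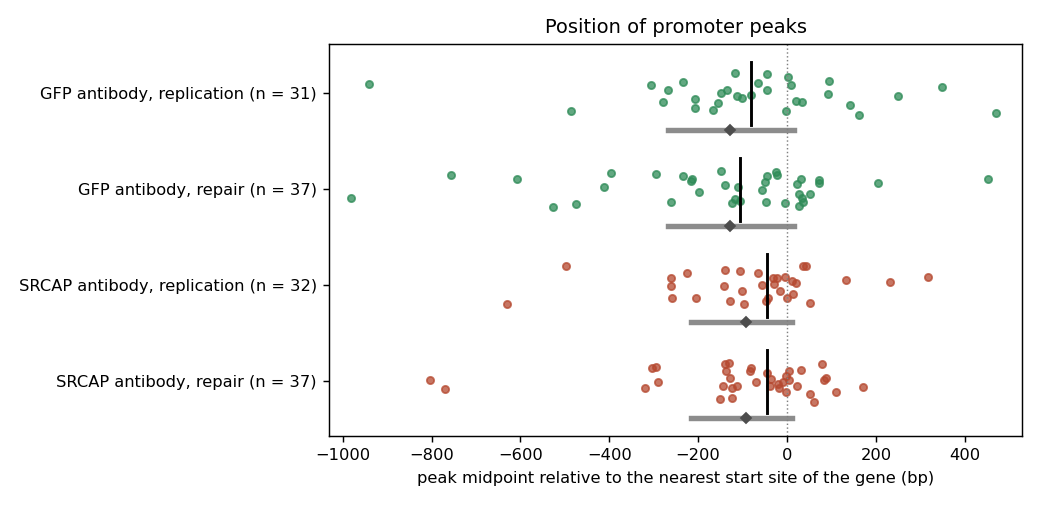
Midpoints of promoter peaks relative to the nearest start site of the gene (x axis, bp, upstream negative) for replication and repair genes and each antibody; points are peaks with vertical jitter, black bars their medians, and grey lines and diamonds the quartiles and median of all protein-coding genes. Points gather around and just upstream of 0, with 75.0% and 82.6% of them within 250 bp.

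Neighbouring genes on the other strand were common. A divergent partner, defined as another gene that starts on the opposite strand up to 1000 bp upstream of the reference TSS, was found for 28 of the 79 genes (35.4%, interval 25.8 to 46.4%), against 14.2% of all protein-coding genes. Replication had 15 of 35 (42.9%) and repair 13 of 44 (29.5%). All 6 ORC genes had such a partner, namely Prpf38a for Orc1, Gm15834 for Orc2, Rars2 for Orc3, Mbd5 for Orc4, 6030443J06Rik for Orc5 and Vps35 for Orc6. Of the 28 genes with a partner, 24 had a GFP antibody peak (85.7%), against 57.8% of all protein-coding genes with a partner, and 22 an SRCAP antibody peak (78.6%), against 58.7%. Of the 51 genes without one, 33 (64.7%) and 40 (78.4%) had a peak, against 31.2% and 31.8% of protein-coding genes without a partner. For genes that share a promoter region, a peak cannot be assigned to 1 of the partners.

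The promoters were also rich in CpG dinucleotides, a common feature of genes used in every cell. A CpG-rich promoter, with an observed over expected CpG ratio of at least 0.6 and a GC content of at least 55%, was present at 54 of the 79 genes (68.4%, interval 57.5 to 77.6%), against 39.6% of all protein-coding genes. Of these 54 genes, 40 had a GFP antibody peak (74.1%, interval 61.1 to 83.9%), against 51.2% of all CpG-rich genes, and 41 an SRCAP antibody peak (75.9%, interval 63.1 to 85.4%), against 53.1%. The 25 other genes had a peak in 17 and 21 cases (68.0% and 84.0%), against 24.4% and 24.2% of protein-coding genes without a CpG-rich promoter. Among the 11 genes without a promoter peak, 8 had a CpG-rich promoter, so this feature did not separate them from the rest.

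Motifs were searched as exact words on both strands of the 300 bp around the reference TSS. The words were TTTCCCGC, TTTGGCGC, TTTCGCGC and TTTGCCGC for E2F, CCAAT followed by CA, GA, CG or GG for NFY, CCGGAAGT for ETS factors, GGGGCGGGG for SP factors, GCGCATGCG for NRF1, AAGATGGCG for YY1 and ACTACAATT for ZNF143. No match of 1 motif overlapped a match of another in the 79 promoters. E2F words were found in 20 promoters (25.3%, interval 17.0 to 35.9%), against 2.89% of all protein-coding promoters. Replication promoters had them in 13 of 35 cases (37.1%) and repair promoters in 7 of 44 (15.9%). Among CpG-rich promoters, the share was 29.6% for the 54 genes and 5.15% for all protein-coding genes.

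The replication genes with an E2F word were Orc1, Orc3, Mcm3, Mcm4, Mcm5, Mcm6, Mcm8, Gins1, Pola1, Pole, Pole2, Pole4 and Rfc3. The repair genes were Msh3, Msh5, Msh6, Brca2, Rad51c, Xrcc6 and Fancg. Mcm3, Mcm4, Mcm5 and Mcm6, 4 of the 6 helicase genes, each held both an E2F and an NFY word, a pair that was found in 9 of the 79 promoters (11.4%) and in 0.784% of all protein-coding promoters. NFY words were found in 24 promoters (30.4%, interval 21.3 to 41.2%) against 19.5%. The ETS word was found in 8 of 35 replication promoters (22.9%, interval 12.1 to 39.0%) and 2 of 44 repair promoters (4.55%, interval 1.26 to 15.1%), against 5.00% of all. SP words were found in 11 replication promoters (31.4%) and 5 repair promoters (11.4%), against 15.5%. NRF1, YY1 and ZNF143 words were found in 4, 1 and 1 of the 79 promoters (5.06%, 1.27% and 1.27%), against 2.51%, 1.87% and 0.542% of all.

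**Figure D5:**
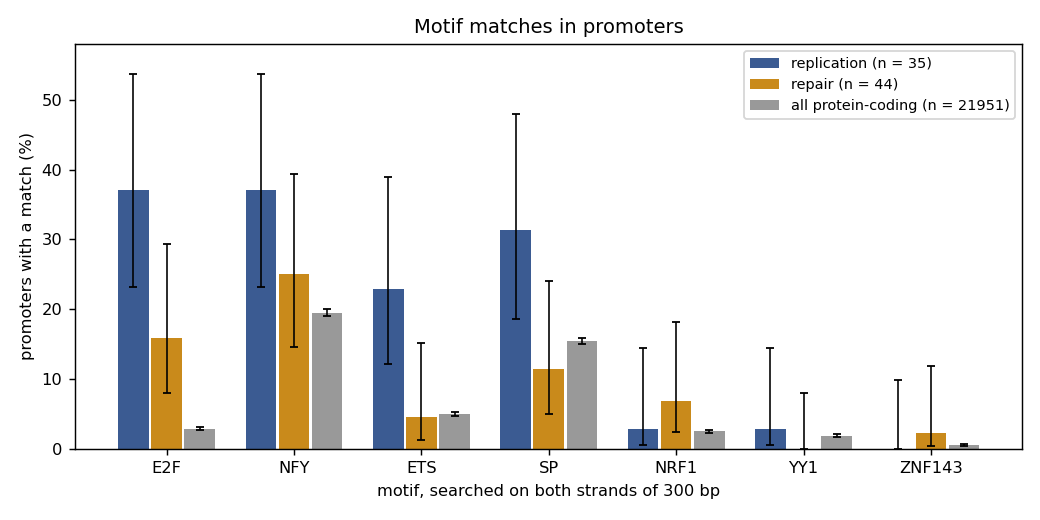
Share of promoters with at least 1 exact match to each motif (y axis, percent; x axis, motif) in the 300 bp window, for replication genes, repair genes and all protein-coding genes; bars are shares and error bars 95% Wilson intervals. The E2F share is 37.1% in replication, 15.9% in repair and 2.89% in all protein-coding promoters.

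Among the 79 genes, a promoter peak was not more frequent at genes with an E2F word than at genes without it. The word was searched around the reference TSS only, while peaks were counted at any TSS of the gene. Word and peak therefore need not lie at the same place. With the word, 14 of 20 genes had a GFP antibody peak (70.0%, interval 48.1 to 85.5%) and 15 an SRCAP antibody peak (75.0%, interval 53.1 to 88.8%). Without it, 43 of 59 (72.9%, interval 60.4 to 82.6%) and 47 of 59 (79.7%, interval 67.7 to 88.0%) had one. Over all protein-coding genes the shares were 53.5% and 53.2% with an E2F word and 34.5% and 35.1% without. Of the 11 genes without any promoter peak, Pola1, Pole, Brca2 and Rad51c held an E2F word.

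The remaining machinery was described through 90 other genes of replication (36) and repair (54), chosen for their known roles. A promoter peak was present at 65 of them with the GFP antibody (72.2%, interval 62.2 to 80.4%) and at 68 with the SRCAP antibody (75.6%, interval 65.8 to 83.3%). By class, the replication genes among them had shares of 75.0% (interval 58.9 to 86.2%) and 72.2% (interval 56.0 to 84.2%), and the repair genes of 70.4% (interval 57.2 to 80.9%) and 77.8% (interval 65.1 to 86.8%). With the SRCAP antibody, repair was thus the higher class here, opposite to the 79 genes, and the intervals of the classes overlap. Chek2, a checkpoint kinase, scored highest in both lists, 373 and 266. Chtf18, of an alternative clamp loader, scored 204 and 196. Bard1, the partner of BRCA1, scored 142 and 133, and Rpa3, a subunit of the protein that coats single-stranded DNA, scored 142 and 122. Top1, a topoisomerase, scored 73 and 203, and Rnaseh2a, which removes ribonucleotides from DNA, scored 88 and 193. Neither list had a promoter peak at 9 of the 90 genes, Atr, Chtf8, Dbf4, Exo1, Fancd2, Mtbp, Parp1, Rad18 and Recql4. Cyclin, kinase and mitosis genes were taken by symbol, as Ccn, Cdk, Cdc, Aurk, Plk, Bub and Kif genes outside the 90. This set was not limited to genes that act in the cell cycle or are expressed in mESCs. Its shares were 48.8% (interval 40.1 to 57.5%) and 51.2% (interval 42.5 to 59.9%) over 123 genes. Proteasome subunit genes had shares of 66.0% (interval 52.2 to 77.6%) with each antibody over 50 genes. This interval overlaps those of the 79 genes, 61.4 to 80.8% with the GFP antibody and 68.2 to 86.1% with the SRCAP antibody.

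Chromosome 8 had promoter peaks at 49.2% and 51.3% of its protein-coding genes, against 34.3% and 34.9% outside it, and the X chromosome fewer, at 13.6% and 9.49%. Orc6, Mcm5, Gins2, Gins3, Gins4 and Fanca lie on chromosome 8, so 3 of the 4 GINS genes do. Outside chromosome 8, 52 of 73 genes had a GFP antibody peak (71.2%) and 57 of 73 an SRCAP antibody peak (78.1%). The part of the chromosome in the GINS scores was not tested. Pola1, Ercc6l and Fancb lie on the X chromosome, and of these only Fancb had a promoter peak, with scores of 101 and 113.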

How the data were processed

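CUT&RUN was performed on SYAT mESCs with 1 library per antibody, GFP and SRCAP, grouped by their titles. A peak list with a whole-number score per peak, whose meaning was not stated, was deposited for each library. Per the labels the tools were STAR, Picard and MACS2 and the builds mm10 (mouse) and dm6 (fly); the study describes an input control and removal of blacklisted regions for other assays, and for CUT&RUN neither is given in the sources used here. Calling without a matched control would affect which peaks are listed. That the GFP library is CUT&RUN rests on its labels, since among the mapping assays the methods of the study name this antibody for CUT&Tag.

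Peaks were placed by midpoint in windows from 1000 bp upstream to 500 bp downstream of TSSs of 141767 GENCODE vM21 transcripts. The reference TSS was that of the first APPRIS principal transcript. Motifs, CpG content and divergent partners were read from GRCm38. Full values are given for the 4 highest scores per list in replication and in repair, for genes in 1 list at or above its median score, and for genes without a peak in groups where most have one. A few genes that this rule or a group would name are not reported here and not drawn by gene, though counts include them. Other genes were named to describe a group after their values were seen. The genes and lists were chosen with earlier results of these data known. Python 3.11.15 with numpy 2.4.6, pandas 2.3.3, scipy 1.17.1, pysam 0.24.0 and matplotlib 3.10.9 was used, and peak placement was tested on simulated data. No p-value is given, since each antibody had 1 library.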

Additional observations from a re-analysis of the deposited data

How the results depend on the processing

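No paired analysis was possible because there was only 1 library for each antibody. Of 112 values under alternative settings, 97 stayed within the counting interval of the value reported. In all 20 settings, the reported one included, the share of the 79 genes with a promoter peak was above that of all protein-coding genes. With 2500 bp either side of the TSS, GFP antibody peaks were at 83.5% of the 79 genes (41.6% of protein-coding genes) and at 81.8% of repair genes. With peaks of at least the median score, the shares fell to 54.4% for each antibody (22.2% and 23.5% of protein-coding genes), to 57.1% and 54.3% in replication and to 52.3% and 54.5% in repair. Overlapping peaks of both antibodies were then at 40.5% of the genes (15.6% of protein-coding genes), and at 50.6% (20.3%) when a reciprocal overlap of 50% was asked. The replication share was above the repair share in 22 of 24 values, but by 2.14 points with the GFP antibody without Msh4, Msh5, Ercc6l and Rad51ap2, by 0 points with whole symbols only, and by -0.260 points with the SRCAP antibody at or above the median score. In the window from 500 bp upstream to 100 bp downstream, E2F words were in 36.7% of the promoters (4.60% of all). In 200 bp at the GFP antibody midpoints they were in 11.8% of peaks, ETS words in 5.88% and SP words in 8.82%, and ZNF143 words were in 0% at the SRCAP antibody midpoints. These peak windows count peaks, not genes. Depth is unknown, so a missing peak does not show that SRCAP is absent.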

Other observations

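Some of these genes held several peaks between the start and the end of the gene. Promoter peaks inside the gene are included in these counts. These genes were picked after their values were seen. Fancc held 8 GFP antibody and 5 SRCAP antibody peaks, Rad51b held 6 and 6, Xrcc4 held 5 and 2, and Mcm9 held 3 and 3. No such count was set against gene length.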
